A study of Mus musculus with 19 samples.

Results

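Lineage-negative, Sca+, cKit+ cells from mice with IDH2-FLT3 leukemia were compared with the same sorted population from mice with TET2-FLT3 leukemia, both given vehicle. The comparison took 7 of the study's 19 RNA libraries, chosen by their column names and labels alone, and all accessions of the count table entered it. IDH2-FLT3 vehicle, with 3 libraries named V3, V3-2 and V9, came from Idh2 R140Q;Flt3-ITD mice. TET2-FLT3 vehicle, with 4 libraries named V1, V5, V5-2 and V19, came from mice whose genotype the labels spell Tet2-/-;Flt3-IDT. Levels are also given for IDH2-FLT3 cells after AG-221, an inhibitor of mutant IDH2 (4 libraries), for TET2-FLT3 cells after 5-Aza (4 libraries) and for untreated wild-type (WT) cells (4 libraries). AG-221 was given by gavage over 4 to 5 weeks. The labels name doses of 100 and 40 mg/kg, the lower one for a combination, and do not say which of them a library had. For 5-Aza they give intraperitoneal doses of 5 mg/kg, 5 per round, with rounds 21 days apart and 4 rounds in all; the design text calls the agent both 5-Azacytidine and Decitabine, which are different compounds. All mice are labelled C57BL/6 and both leukemic lines carry the Flt3 allele. Age, the length of vehicle treatment and any Cre driver are not given in the sources used here. Among the 19 libraries none carries the Flt3 allele alone, so the comparison sets 1 pair of alleles, in its mouse line, against the other.

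Mutant IDH2 turns 2-oxoglutarate into D-2-hydroxyglutarate, which inhibits dioxygenases that use 2-oxoglutarate, the TET enzymes among them. TET2 oxidizes methylated cytosine in DNA, so the alleles in these lines touch overlapping biochemistry by different routes. The Flt3 internal tandem duplication makes a receptor kinase that signals without its ligand. The sorted compartment normally holds hematopoietic stem cells and early multipotent progenitors, in which stem cell factors are high and the granule proteins of maturing granulocytes are low.

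Assigned counts, in units of 1e6, were 14.3, 20.1 and 13.1 in IDH2-FLT3 vehicle, against 9.64, 15.5, 20.4 and 10.9 in TET2-FLT3 vehicle. Levels are given as counts per 1e6 counts after TMM scaling (CPM). A fold change is IDH2-FLT3 vehicle over TET2-FLT3 vehicle on the log2 scale, ± its standard error, and a gene was called where edgeR's quasi-likelihood test gave an adjusted p under 0.05. Values of single libraries are always in the order V3, V3-2, V9 for IDH2-FLT3 vehicle and V1, V5, V5-2, V19 for TET2-FLT3 vehicle. V1 detected 12088 accessions, the fewest of the 19 libraries. The libraries did not separate by line over all genes. V9 of IDH2-FLT3 vehicle correlated best with V5 of TET2-FLT3 vehicle (r = 0.976 across genes on log2 counts per 1e6 counts), the highest value of any pair. V3-2 correlated as well with V5-2 of the other line (r = 0.941) as with V3 of its own (r = 0.941). These correlations are a description, since genes are not replicates. The column names join V3 with V3-2 and V5 with V5-2 by number, but the labels do not say whether these came from separate animals. Neither pair was a copy: the chi-square per accession was 309 for V3 and V3-2 and 314 for V5 and V5-2, against 35.1 for V5 and V9. The chi-square grows with the number of reads, and V3-2 and V5-2 had the most counts of the 7 libraries. The source of the spread between these libraries was not tested. The p-values come from a fit of all 19 libraries, so the spread they measure also includes that within the treated and WT groups. Fitted alone, the 7 vehicle libraries gave 17 calls, against 506 in the fit of all 19.

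**Figure D1:**
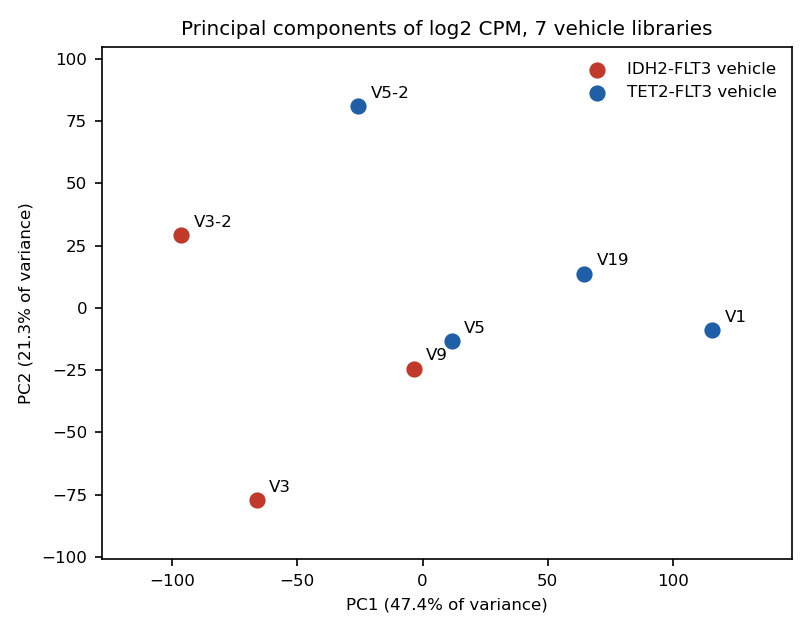
Position of the 3 IDH2-FLT3 vehicle libraries and the 4 TET2-FLT3 vehicle libraries on principal components of log2 counts per 1e6 counts, with PC1 (47.4% of the variance) on the horizontal axis and PC2 (21.3%) on the vertical axis. V3 and V3-2 lie left and V1 and V19 right, V9 lies beside V5, and V3-2 and V5-2 lie highest on the vertical axis.

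The genes of the gate did not allow a check of it: Kit had 4 reads in all 19 libraries and Ly6a, which encodes Sca-1, had 0. Outside the gate, Cd34, a progenitor surface gene, held 703 reads in IDH2-FLT3 vehicle and 1157 in TET2-FLT3 vehicle, and the pan-leukocyte gene Ptprc held 155 and 190 reads in the same order. Kit and Ly6a have several accessions, and accessions of such genes were often empty in the table: 61.6% held 0 counts in every library, against 18.9% of the other accessions. For the same reason Irf7, Dnmt1, Dnmt3a and Tet1 are not analysed here.

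The engineered genes did not separate the lines by level. Tet2, the dioxygenase knocked out in TET2-FLT3 mice, gave 188, 120.2 and 140.5 CPM in IDH2-FLT3 vehicle, against 118, 94.0, 58.7 and 156 CPM in TET2-FLT3 vehicle. The difference did not pass the test (log2 fold change 0.49 ± 0.33, adjusted p = 0.404), and reads summed over a gene do not show whether 1 exon is missing. Idh2, the mitochondrial isocitrate dehydrogenase with the point mutation in IDH2-FLT3 mice, gave 153, 544 and 237 CPM in IDH2-FLT3 vehicle, against 403, 183, 526 and 274 CPM in TET2-FLT3 vehicle (log2 fold change -0.15 ± 0.39, adjusted p = 0.841). V3-2 was the highest and V3 the lowest of the 7 for Idh2. Flt3, the receptor kinase, gave 58.3, 146 and 260.2 CPM in IDH2-FLT3 vehicle, against 219, 299, 666 and 364 CPM in TET2-FLT3 vehicle (log2 fold change -1.32 ± 0.46, adjusted p = 0.1005). The groups overlapped for Flt3, and the lowest value, in V3, and the highest, in V5-2, differed more than the group means.

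Enzymes of the same biochemistry did not pass either. Tet3, another TET dioxygenase, ranged over 169 to 216 CPM in IDH2-FLT3 vehicle, against 56.9 to 196 CPM in TET2-FLT3 vehicle (adjusted p = 0.428). D2hgdh, which removes D-2-hydroxyglutarate, ranged over 25.7 to 33.9 CPM in IDH2-FLT3 vehicle, against 12.5 to 23.8 CPM in TET2-FLT3 vehicle, without overlap (adjusted p = 0.463). Idh1, the cytosolic paralog, has 2 accessions and few reads, so its value is uncertain (0.401 to 7.36 CPM in IDH2-FLT3 vehicle, against 0.270 to 1.93 CPM in TET2-FLT3 vehicle; log2 fold change 2.01 ± 0.90, adjusted p = 0.206). EdgeR called none of the 25 tested DNA methylation and 2-oxoglutarate enzymes (median 0.17), where 4.28% of all accessions tested were called in either direction. Of these 25, 2 had an unadjusted p under 0.05, DESeq2 called 1 lower, and limma-voom and limma-trend called 0.

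Across 11830 accessions tested with edgeR, 506 were called at an adjusted p under 0.05 (4.28%). Of these, 228 were higher in IDH2-FLT3 vehicle (1.93%) and 278 lower (2.35%), and the median log2 fold change over all accessions was 0.01. The late neutrophil, primary granule and eosinophil lists held the largest shares of members called higher, and the interferon, Hox and stem cell lists the largest shares called lower, as the plot of members called per list shows.

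V3 and V3-2 lay further from TET2-FLT3 vehicle than V9 did. V9 was the IDH2-FLT3 library nearest to the TET2-FLT3 mean for 223 of the 228 accessions called higher and 212 of the 278 called lower. Without V9, 1299 accessions were called, against 122 without V3 and 192 without V3-2. Leaving out a TET2-FLT3 library gave 367 calls without V1, 825 without V5, 1640 without V5-2 and 295 without V19. With the 7 vehicle libraries fitted alone, 17 were called, all among the 506. Of the genes described here, these were Ear1, Hdc, Mgam, Sgms2, Mgl2, Ifi44l, Ifi44, Ifit1, Cxcl10, Gbp2b, Ccnb1ip1, Xlr4a and Mtmr9. Limma-voom called 31 higher and 161 lower, and limma-trend on log2(FPKM + 0.1) 166 higher and 406 lower. The share of calls that were higher was thus 45.1% by edgeR, 16.1% by limma-voom and 29.02% on that FPKM scale. Where leaving out 1 library ended the call of a gene, the libraries are named beside its adjusted p, with the highest p that resulted. Leaving out V3 keeps V3-2, and leaving out V5 keeps V5-2. If such a pair came from 1 animal, these values do not show how far a call rests on that animal.

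**Figure D2:**
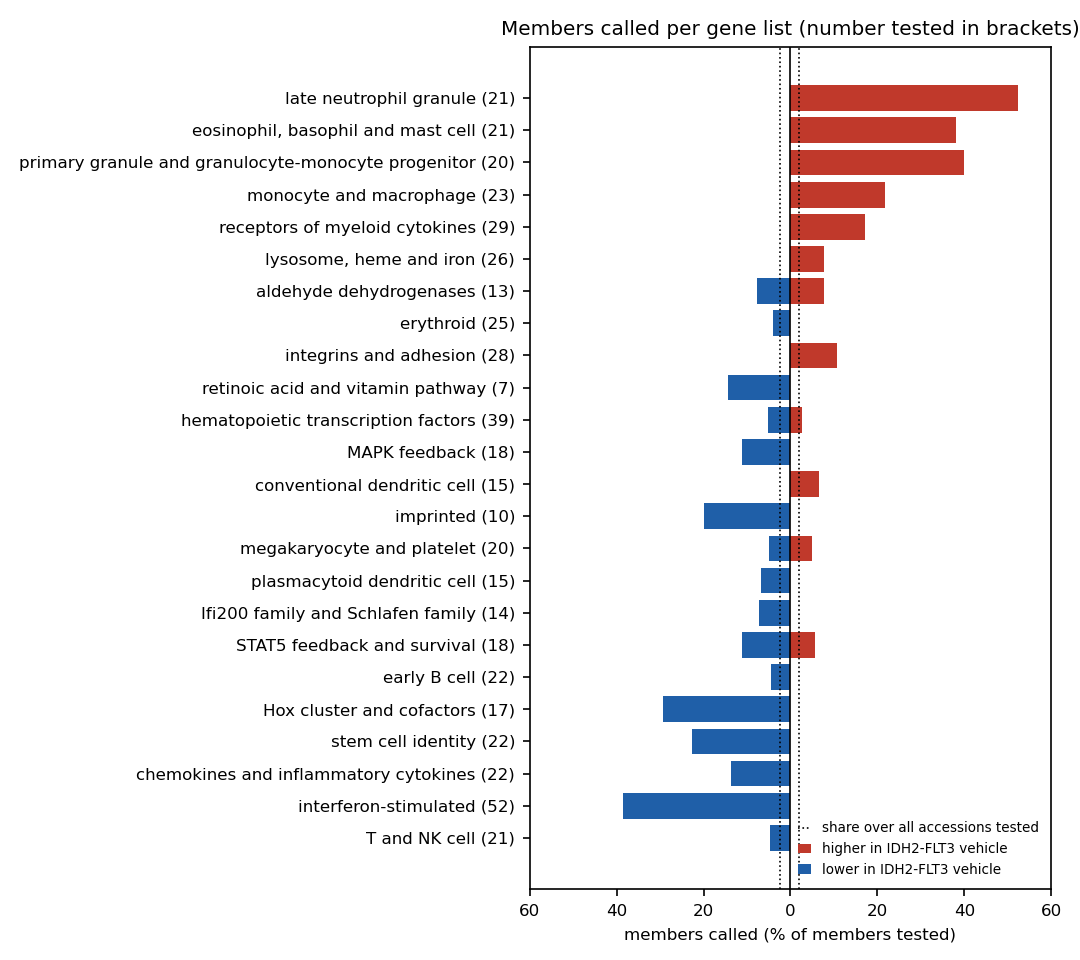
Share of the tested members of each gene list called higher (bars to the right) or lower (bars to the left) in IDH2-FLT3 vehicle than in TET2-FLT3 vehicle, in percent of members tested, for lists with at least 1 call, sorted by median log2 fold change. Dotted lines mark the shares over all accessions tested, 1.93% higher and 2.35% lower, and the late neutrophil list extends furthest to the right and the interferon list furthest to the left.

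A set of eosinophil and basophil genes was higher in IDH2-FLT3 vehicle. Of 21 tested members of the eosinophil, basophil and mast cell list, 8 were called higher and 0 lower (38.1%, where 4.28% of all accessions were called), with a median log2 fold change of 2.28. The other 13 were not called, 4 of them with a negative value. The groups did not overlap for 9 members, where 8.59% of all accessions tested did not overlap. The count of members called higher stayed between 7 and 12 when any 1 of the 7 libraries was left out, and limma-voom called 3. The summed level of the list was 5401, 2602 and 679 CPM in IDH2-FLT3 vehicle, against 558, 284, 186 and 399 CPM in TET2-FLT3 vehicle. WT libraries summed to between 762 and 1119 CPM, above V9 and above all 4 TET2-FLT3 vehicle libraries. In a bulk library, more cells of a type and more RNA of its genes per cell cannot be told apart, here or in the lists that follow. The labelled sort is lineage-negative, which would remove mature eosinophils, neutrophils and monocytes, and the part of such cells in these values was not tested.

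Prg2, the major basic protein of eosinophil granules, gave 2533, 1129 and 289.5 CPM in IDH2-FLT3 vehicle, against 39.3, 4.39, 2.58 and 12.2 CPM in TET2-FLT3 vehicle. Every IDH2-FLT3 library lay above every TET2-FLT3 library (log2 fold change 6.52 ± 0.996, adjusted p = 0.00135, and 7.86e-05 to 0.00746 with 1 library left out). Epx, the eosinophil peroxidase, gave 177, 169 and 21.9 CPM in IDH2-FLT3 vehicle, against 6.00, 0.405, 0.205 and 0.576 CPM in TET2-FLT3 vehicle (log2 fold change 6.27 ± 1.19, adjusted p = 0.00476). Prg3, a further eosinophil granule protein related to Prg2, gave 74.5, 43.4 and 9.54 CPM in IDH2-FLT3 vehicle, against 7.09, 0.743, 0.492 and 0.0960 CPM in TET2-FLT3 vehicle (log2 fold change 4.45 ± 0.95, adjusted p = 0.00979, and 0.0723 without V3). V1 was the highest TET2-FLT3 library for Prg2, Epx and Prg3. Ear1, an eosinophil-associated ribonuclease, gave 12.6, 8.46 and 2.00 CPM in IDH2-FLT3 vehicle, against 0, 0, 0.0410 and 0 CPM in TET2-FLT3 vehicle. Its 350 reads in IDH2-FLT3 vehicle and 1 read in TET2-FLT3 vehicle made a level higher by 442-fold (95% interval from counting error 78.7 to 17492), with an adjusted p of 5.61e-04. Ear6, of the same family, was also called (log2 fold change 5.53 ± 0.91, adjusted p = 0.00232). Ear genes have close copies, so the division of reads among them is uncertain.

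Basophil genes were among the calls. Prss34, a serine protease of basophils and mast cells, gave 1442, 438 and 31.6 CPM in IDH2-FLT3 vehicle, against 19.6, 2.63, 0.574 and 8.35 CPM in TET2-FLT3 vehicle (log2 fold change 6.41 ± 1.03, adjusted p = 0.00190). Hdc, the enzyme that makes histamine, gave 359, 307 and 29.3 CPM in IDH2-FLT3 vehicle, against 11.0, 8.64, 9.52 and 6.81 CPM in TET2-FLT3 vehicle (log2 fold change 4.69 ± 0.68, adjusted p = 8.37e-04). Fcer1a, the alpha chain of the high-affinity IgE receptor, gave 44.1, 18.2 and 2.89 CPM in IDH2-FLT3 vehicle, against 1.09, 1.62, 0.861 and 1.92 CPM in TET2-FLT3 vehicle (log2 fold change 3.98 ± 0.74, adjusted p = 0.00410). For Prss34, Hdc and Fcer1a, V3 was highest, V3-2 next and V9 lowest within IDH2-FLT3 vehicle, and V9 still lay above all 4 TET2-FLT3 libraries. WT ranged over 105 to 166 CPM for Prss34 and 4.75 to 19.3 CPM for Fcer1a, so V9 lay below all WT libraries for both. For Hdc, V9 lay within the WT range of 8.78 to 43.8 CPM. For Prg2 and Epx, V9 lay above all WT libraries. Cpa3, the mast cell carboxypeptidase, gave 199, 115 and 26.0 CPM in IDH2-FLT3 vehicle, against 98.9, 16.9, 8.49 and 16.7 CPM in TET2-FLT3 vehicle. Its groups overlapped through V1 and it was not called (log2 fold change 1.70 ± 0.64, adjusted p = 0.138).

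Progenitors switch on primary granule genes as they enter the granulocyte and monocyte path. Of 20 tested members, 8 were called higher in IDH2-FLT3 vehicle and 0 lower (40.0%, where 4.28% of all accessions were called). The median log2 fold change was 1.63, and 2 members had a negative value. The groups did not overlap for 8, where 8.59% of all accessions tested did not overlap. The count called higher was 2 without V3 and 14 without V9, limma-voom called 2, and the 7 vehicle libraries alone gave 0. Mpo, the myeloperoxidase of the azurophil granule, gave 62762, 37307 and 11046 CPM in IDH2-FLT3 vehicle, against 2163, 6278, 5305 and 2213 CPM in TET2-FLT3 vehicle (log2 fold change 3.21 ± 0.65, adjusted p = 0.00702, and 0.0632 without V3). Elane, neutrophil elastase, gave 29809, 8624 and 4542 CPM in IDH2-FLT3 vehicle, against 1710.0, 1602, 478 and 1140.2 CPM in TET2-FLT3 vehicle (log2 fold change 3.54 ± 0.69, adjusted p = 0.00574, and 0.0742 without V3). Prtn3, proteinase 3, gave 5964, 5908 and 2352 CPM in IDH2-FLT3 vehicle, against 1697, 1567, 1163 and 1316 CPM in TET2-FLT3 vehicle (log2 fold change 1.72 ± 0.40, adjusted p = 0.0163, and up to 0.118 without V3-2, V3 or V19). All 3 IDH2-FLT3 libraries lay above all 4 TET2-FLT3 libraries for Mpo, Elane and Prtn3.

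Hp, the hemoglobin-binding protein haptoglobin, gave 1576, 920.4 and 250.1 CPM in IDH2-FLT3 vehicle, against 74.3, 113, 77.0 and 50.003 CPM in TET2-FLT3 vehicle (log2 fold change 3.54 ± 0.69, adjusted p = 0.00574). Igsf6, a membrane protein of myeloid cells, gave 1173, 505 and 119 CPM in IDH2-FLT3 vehicle, against 72.8, 81.4, 37.8 and 22.9 CPM in TET2-FLT3 vehicle (log2 fold change 3.48 ± 0.64, adjusted p = 0.00387). Fcnb, a ficolin of granulocyte precursors, gave 1611, 609 and 71.8 CPM in IDH2-FLT3 vehicle, against 70.9, 31.1, 10.5 and 35.7 CPM in TET2-FLT3 vehicle (log2 fold change 4.37 ± 0.93, adjusted p = 0.00914, and 0.0989 without V3). V9 exceeded V1 only narrowly for Fcnb. Cebpe, the transcription factor of granulocyte maturation, gave 196, 190.1 and 20.8 CPM in IDH2-FLT3 vehicle, against 33.0, 7.16, 9.06 and 11.0 CPM in TET2-FLT3 vehicle, with V9 below V1 (log2 fold change 3.18 ± 0.69, adjusted p = 0.0115, and up to 0.0740 without V3-2 or V3). Ms4a3, a membrane protein of granulocyte-monocyte progenitors, was the remaining call (log2 fold change 2.403 ± 0.55, adjusted p = 0.0149, and up to 0.173 without V3 or V19). Ctsg, the granule protease cathepsin G, ranged over 1265 to 4134 CPM in IDH2-FLT3 vehicle, against 844 to 1894 CPM in TET2-FLT3 vehicle and was not called (log2 fold change 1.07 ± 0.43, adjusted p = 0.164).

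Late neutrophil granule genes, made at the myelocyte and later stages, had the largest median of the lists, 3.30, and the difference lay in V3 and V3-2. EdgeR called 11 of 21 tested members higher and 0 lower (52.4%, where 4.28% of all accessions were called), and limma-voom called 0 higher. The groups did not overlap for 2 of the 21, a share near the 8.59% of all accessions tested. Members called higher numbered 2 without V3, 5 without V3-2, 17 without V9 and 7 without V19, and 1 with V3 and V3-2 summed and V5 and V5-2 summed. The summed level of the list was 33290.0, 15869 and 1896 CPM in IDH2-FLT3 vehicle, against 3501, 1521, 826 and 1678 CPM in TET2-FLT3 vehicle. V9 lay at the level of the TET2-FLT3 libraries in this sum, below V1.

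Ltf, lactoferrin, gave 3141, 1841 and 50.1 CPM in IDH2-FLT3 vehicle, against 80.3, 44.0, 37.2 and 55.2 CPM in TET2-FLT3 vehicle (log2 fold change 4.95 ± 0.95, adjusted p = 0.00503). V9 lay within the TET2-FLT3 range for Ltf, while V3 and V3-2 lay far above it. Ngp, the neutrophilic granule protein, gave 10704, 3086 and 255 CPM in IDH2-FLT3 vehicle, against 351, 156, 52.5 and 167 CPM in TET2-FLT3 vehicle (log2 fold change 4.69 ± 1.01, adjusted p = 0.0106, and 0.125 without V3). Cd177, a neutrophil surface glycoprotein, gave 525, 336 and 11.4 CPM in IDH2-FLT3 vehicle, against 13.4, 10.7, 8.24 and 5.09 CPM in TET2-FLT3 vehicle (log2 fold change 4.96 ± 0.92, adjusted p = 0.00404). Lcn2, a lipocalin that binds bacterial siderophores, gave 1592, 964 and 64.2 CPM in IDH2-FLT3 vehicle, against 123, 45.5, 26.6 and 69.3 CPM in TET2-FLT3 vehicle (log2 fold change 3.73 ± 0.86, adjusted p = 0.0157, and 0.126 without V3). V9 lay below V1 for Ngp, Cd177 and Lcn2. Itgb2l, a leukocyte integrin beta chain, gave 109, 117 and 4.41 CPM in IDH2-FLT3 vehicle, against 9.95, 1.42, 2.01 and 2.11 CPM in TET2-FLT3 vehicle (log2 fold change 4.36 ± 0.93, adjusted p = 0.00979, and 0.0536 without V3). Mmp8, the neutrophil collagenase, was called as well (log2 fold change 2.60 ± 0.67, adjusted p = 0.0308, and up to 0.285 without V3-2, V3, V19 or V1). Camp, the cathelicidin, gave 2849, 1787 and 106 CPM in IDH2-FLT3 vehicle, against 409, 34.2, 22.5 and 174 CPM in TET2-FLT3 vehicle, with V1 and V19 above V9, and was not called (log2 fold change 3.31 ± 0.99, adjusted p = 0.0622). S100a8, a calprotectin subunit, was not called either (log2 fold change 2.82 ± 0.96, adjusted p = 0.0983).

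Of 23 tested monocyte and macrophage genes, 5 were called higher and 0 lower (21.7%, where 4.28% of all accessions were called), with a median of 0.77. The count called higher was 0 without V3, 1 without V3-2, 9 without V9 and 2 without V19. In the lower direction 2 members had an unadjusted p under 0.05, DESeq2 called 1, limma-voom 0 and limma-trend 0. Csf1r, the receptor of macrophage colony-stimulating factor, gave 491, 511 and 60.9 CPM in IDH2-FLT3 vehicle, against 22.1, 63.8, 87.2 and 26.5 CPM in TET2-FLT3 vehicle (log2 fold change 2.82 ± 0.59, adjusted p = 0.00868, and up to 0.0632 without V3-2 or V3). Fcgr3, a low-affinity Fc gamma receptor, gave 233, 223 and 29.9 CPM in IDH2-FLT3 vehicle, against 44.3, 5.87, 8.20 and 11.5 CPM in TET2-FLT3 vehicle (log2 fold change 3.23 ± 0.66, adjusted p = 0.00779, and 0.0546 without V3). Lyz2, lysozyme of neutrophils and monocytes, gave 3671, 2274 and 606 CPM in IDH2-FLT3 vehicle, against 479.7, 735, 457 and 300.2 CPM in TET2-FLT3 vehicle (log2 fold change 2.15 ± 0.50, adjusted p = 0.0179, and up to 0.197 without V3-2, V3 or V19). V9 lay among the TET2-FLT3 libraries for Csf1r, Fcgr3 and Lyz2. Ly6c2, a monocyte surface antigen with close copies in the genome, was called with less certainty of its reads (log2 fold change 2.62 ± 0.63, adjusted p = 0.0199, and up to 0.211 without V3-2, V3 or V19). Ccr2, the chemokine receptor by which monocytes leave marrow, gave 759, 444 and 647 CPM in IDH2-FLT3 vehicle, against 527, 685, 318 and 277 CPM in TET2-FLT3 vehicle, with overlapping groups (log2 fold change 0.45 ± 0.55, adjusted p = 0.655).

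**Figure D3:**
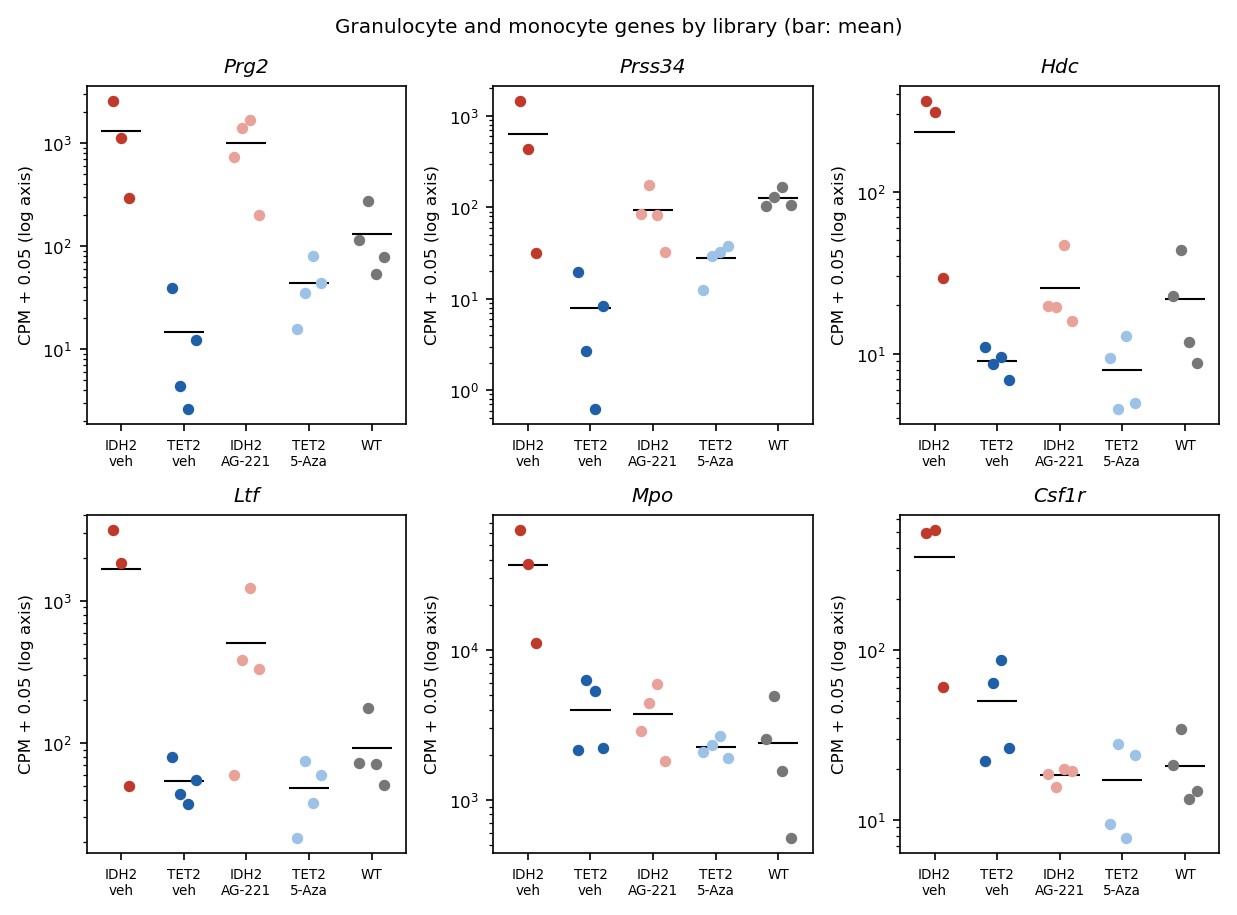
Levels of 6 granulocyte, basophil and monocyte genes by library in CPM plus 0.05 on a log axis, for IDH2-FLT3 vehicle, TET2-FLT3 vehicle, AG-221, 5-Aza and WT, where points are libraries and bars are means. Prg2, Prss34, Hdc and Mpo separate the vehicle groups, whereas 1 IDH2-FLT3 library, V9, lies at the TET2-FLT3 level for Ltf and Csf1r.

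The treated arms share no library with the vehicle arms, but drug and line differ together there and cannot be told apart. AG-221 over 5-Aza called 0.549% of accessions higher and 0.194% lower, and 4 of the 21 eosinophil, basophil and mast cell members higher. Prg2 gave 731, 1403, 1678 and 199 CPM after AG-221, against 15.6, 35.2, 79.4 and 43.8 CPM after 5-Aza (log2 fold change 4.53 ± 0.89, adjusted p = 0.0188). Ltf gave 59.2, 383, 1239 and 329.8 CPM after AG-221, against 21.4, 74.5, 38.1 and 59.2 CPM after 5-Aza, and did not pass (log2 fold change 3.38 ± 0.86, adjusted p = 0.0759). The Prg2 ranges of the treated arms did not overlap, while those of Ltf, Fcer1a and Cpa3 did. These genes do not stand for their lists. The treated median log2 fold change was 1.16 for the eosinophil, basophil and mast cell list and 3.08 for the late neutrophil list. Of the late neutrophil members, 0 were called between the treated arms.

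Interferon-stimulated genes had more members called lower in IDH2-FLT3 vehicle than any other list. Interferons act through JAK kinases and STAT factors to induce antiviral effectors, RNA sensors and guanylate-binding proteins, many of them through a promoter element bound by complexes of STAT and IRF proteins. Of 52 tested members of the interferon list, 20 were called lower and 0 higher (38.5%, where 4.28% of all accessions were called), with a median log2 fold change of -1.34. A negative value was found for 49 members, and the groups did not overlap for 26, where 8.59% of all accessions tested did not overlap. DESeq2 called 31 lower, limma-voom 17 and the fit of the 7 libraries alone 4. The count was 11 without V3, and no other left-out library moved it by over 1.5 times. The summed level was 3145, 2122 and 4036 CPM in IDH2-FLT3 vehicle, against 8092, 7973, 5129 and 6279.6 CPM in TET2-FLT3 vehicle, so all 3 IDH2-FLT3 libraries lay below all 4 TET2-FLT3 libraries. For the interferon, stem cell, Hox and chemokine lists, no member was called higher by edgeR, DESeq2, limma-voom or limma-trend or had an unadjusted p under 0.05 in that direction. The same was true of the lower direction for the eosinophil, primary granule and late neutrophil lists.

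The promoters of the 4 called members with the smallest p are printed to set the genes that differed most beside 1 searched motif. Each runs 5′ to 3′ from 250 bases before to 50 bases after the annotated start, from RefSeq on GRCm38.p6. Capitals mark GAAA, any 2 bases and GAAA again, or on the other strand TTTC, any 2 bases and TTTC, which is a core of the interferon-stimulated response element.
Ifi44l (chr3:151762842-151763141, minus strand): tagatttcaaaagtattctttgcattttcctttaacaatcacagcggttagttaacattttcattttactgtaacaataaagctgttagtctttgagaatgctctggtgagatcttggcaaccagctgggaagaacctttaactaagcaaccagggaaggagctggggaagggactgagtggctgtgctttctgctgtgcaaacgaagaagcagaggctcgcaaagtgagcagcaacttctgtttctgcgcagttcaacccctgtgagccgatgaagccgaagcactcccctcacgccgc
Ifi44 (chr3:151749861-151750160, minus strand): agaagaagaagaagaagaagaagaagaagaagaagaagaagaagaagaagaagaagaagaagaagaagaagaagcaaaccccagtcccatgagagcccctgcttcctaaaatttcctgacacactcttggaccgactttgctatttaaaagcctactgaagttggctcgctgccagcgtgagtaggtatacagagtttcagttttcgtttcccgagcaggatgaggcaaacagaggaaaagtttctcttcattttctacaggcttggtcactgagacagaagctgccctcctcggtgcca
Ifit1 (chr19:34640639-34640938, plus strand): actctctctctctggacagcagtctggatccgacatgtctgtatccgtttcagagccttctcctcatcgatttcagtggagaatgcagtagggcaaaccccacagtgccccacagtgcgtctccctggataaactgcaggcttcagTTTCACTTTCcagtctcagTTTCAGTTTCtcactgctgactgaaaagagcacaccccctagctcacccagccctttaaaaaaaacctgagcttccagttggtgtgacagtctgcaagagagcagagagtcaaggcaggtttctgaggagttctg
Isg15 (chr4:156200769-156201068, minus strand): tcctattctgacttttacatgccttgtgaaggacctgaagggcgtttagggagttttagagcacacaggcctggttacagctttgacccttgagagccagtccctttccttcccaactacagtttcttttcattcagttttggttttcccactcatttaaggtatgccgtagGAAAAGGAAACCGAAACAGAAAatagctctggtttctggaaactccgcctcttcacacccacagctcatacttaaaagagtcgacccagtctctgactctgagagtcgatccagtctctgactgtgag
Isg15 held 3 overlapping matches and Ifit1 held 2, while Ifi44l and Ifi44 held 0. Over 32851 promoters of this length, 3.44% held at least 1 match. In the interferon list, 9 of the 14 members called lower whose promoter was in the table held a match (64.3%), and 13 of 27 members not called did (48.1%). This difference was not tested. An absent match says only that these letters are not in the window.

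Ifi44l and its neighbor Ifi44, interferon-induced proteins, showed the largest differences of the list. Ifi44l gave 0.337, 0.0481 and 0 CPM in IDH2-FLT3 vehicle, against 161, 172, 150.4 and 108 CPM in TET2-FLT3 vehicle, from 5 reads and 8522 reads in the same order (log2 fold change -10.22 ± 0.76, adjusted p = 1.60e-07, and 2.52e-07 to 4.74e-06 with 1 library left out). Ifi44 gave 2.02, 0.962 and 6.81 CPM in IDH2-FLT3 vehicle, against 227, 380.1, 195 and 139.5 CPM in TET2-FLT3 vehicle (log2 fold change -6.19 ± 0.59, adjusted p = 3.52e-06). Both genes separated the treated arms as well. Ifi44l gave 0.403, 0.0770, 0.0842 and 0 CPM after AG-221, against 16.9, 32.3, 20.3 and 21.9 CPM after 5-Aza (log2 fold change -7.31 ± 0.64, adjusted p = 1.10e-06), and 31.6, 28.4, 70.1 and 85.9 CPM in WT. Ifi44 gave 10.6, 6.31, 8.84 and 14.5 CPM after AG-221, against 39.2, 58.9, 32.1 and 50.5 CPM after 5-Aza (log2 fold change -2.17 ± 0.44, adjusted p = 0.0194), and 75.0, 62.0, 82.8 and 112 CPM in WT. IDH2-FLT3 libraries lay below all WT libraries and TET2-FLT3 vehicle libraries above them for Ifi44l and Ifi44.

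Antiviral effectors outside that pair were lower too. Ifit1, which binds foreign RNA ends, gave 2.95, 0.721 and 1.68 CPM in IDH2-FLT3 vehicle, against 46.9, 53.7, 25.6 and 25.8 CPM in TET2-FLT3 vehicle (log2 fold change -4.43 ± 0.47, adjusted p = 1.26e-05). Isg15, a ubiquitin-like modifier, gave 5.57, 2.74 and 10.1 CPM in IDH2-FLT3 vehicle, against 70.5, 65.4, 39.9 and 32.6 CPM in TET2-FLT3 vehicle (log2 fold change -3.09 ± 0.41, adjusted p = 2.95e-04). Rsad2, the antiviral enzyme viperin, gave 3.46, 2.404 and 8.26 CPM in IDH2-FLT3 vehicle, against 30.8, 49.9, 30.4 and 36.1 CPM in TET2-FLT3 vehicle (log2 fold change -2.97 ± 0.46, adjusted p = 0.00152). The 3 IDH2-FLT3 libraries lay below all 4 TET2-FLT3 libraries for Ifit1, Isg15 and Rsad2, and V3-2 was the lowest of all. Cxcl10, a chemokine induced by interferon gamma, gave 2.70, 1.54 and 2.33 CPM in IDH2-FLT3 vehicle, against 26.2, 21.9, 15.4 and 23.9 CPM in TET2-FLT3 vehicle (log2 fold change -3.32 ± 0.55, adjusted p = 0.00233). Ddx58, which encodes the RNA sensor RIG-I, gave 24.5, 21.8 and 25.9 CPM in IDH2-FLT3 vehicle, against 39.5, 86.5, 84.9 and 78.5 CPM in TET2-FLT3 vehicle (log2 fold change -1.59 ± 0.27, adjusted p = 0.00280). Ifi27l2a gave 7.67, 2.93 and 10.3 CPM in IDH2-FLT3 vehicle, against 298, 99.5, 34.0 and 76.0 CPM in TET2-FLT3 vehicle (log2 fold change -4.19 ± 0.87, adjusted p = 0.00821, and up to 0.0604 without V3-2 or V3). Ifi27l2a has 2 accessions, so its reads may be incomplete.

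Oligoadenylate synthetases, enzymes that activate RNase L, and their relatives were called lower. Oas3 gave 4.38, 7.12 and 8.10 CPM in IDH2-FLT3 vehicle, against 6.14, 67.4, 83.4 and 38.9 CPM in TET2-FLT3 vehicle, with V1 within the IDH2-FLT3 range (log2 fold change -2.91 ± 0.56, adjusted p = 0.00535, and 0.0519 without V3). Oas2 (log2 fold change -2.98 ± 0.63, adjusted p = 0.00868, and 0.0789 without V3) and Oasl2 (log2 fold change -2.53 ± 0.44, adjusted p = 0.00359) had the same direction. Further calls were Phf11d (log2 fold change -3.57 ± 0.62, adjusted p = 0.00342), Rtp4 (log2 fold change -3.45 ± 0.70, adjusted p = 0.00713, and 0.0661 without V3) and Ifit3 (log2 fold change -3.77 ± 0.95, adjusted p = 0.0269, and up to 0.179 without V3-2 or V3), an RNA-binding relative of Ifit1. Parp9, an ADP-ribosyltransferase of the interferon response, had a smaller difference (log2 fold change -1.07 ± 0.24, adjusted p = 0.0146, and up to 0.0789 without V3-2 or V3).

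Guanylate-binding proteins, GTPases that attack the vacuoles of microbes, were lower for a neighboring pair on chromosome 3. Gbp2 gave 22.4, 24.04 and 28.2 CPM in IDH2-FLT3 vehicle, against 86.3, 67.1, 50.6 and 54.8 CPM in TET2-FLT3 vehicle (log2 fold change -1.38 ± 0.24, adjusted p = 0.00342). Gbp2b, a close relative outside the list, gave 0.928, 0.769 and 5.45 CPM in IDH2-FLT3 vehicle, against 77.4, 55.7, 46.9 and 57.7 CPM in TET2-FLT3 vehicle (log2 fold change -4.66 ± 0.86, adjusted p = 0.00410). It gave 0.403, 0.693, 1.52 and 9.96 CPM after AG-221, against 25.2, 44.4, 38.0 and 35.9 CPM after 5-Aza (log2 fold change -3.52 ± 0.73, adjusted p = 0.0222). Reads shared between these close copies may be divided incorrectly. The treated arms did not pass for Ifit1 (log2 fold change -0.91 ± 0.36, adjusted p = 0.313), Isg15 (-0.59 ± 0.34, adjusted p = 0.530) or Rsad2 (0.52 ± 0.38, adjusted p = 0.664). Over the interferon list, 2 members were called lower in AG-221 than in 5-Aza and the median was -0.12. Whether the vehicle and treated differences themselves differ was not tested.

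Genes related to the interferon response were counted apart. Ifngr1, a chain of the interferon gamma receptor, was higher in IDH2-FLT3 vehicle, with 961, 539.9 and 422 CPM in IDH2-FLT3 vehicle, against 318, 333, 218 and 236 CPM in TET2-FLT3 vehicle (log2 fold change 1.21 ± 0.28, adjusted p = 0.0163, and up to 0.216 without V3 or V19). Mndal was the 1 call among 14 Ifi200 and Schlafen family genes, which interferons also induce (log2 fold change -1.396 ± 0.35, adjusted p = 0.0248, and up to 0.145 without V3-2, V3, V19 or V1). That is 7.14% of the list, where 4.28% of all accessions were called. EdgeR called none of 21 MHC class I and immunoproteasome genes (median -0.10), where 3 had an unadjusted p under 0.05, DESeq2 called 2, and limma-voom and limma-trend 0. It called none of 13 MHC class II genes (median -0.06), and 0 had an unadjusted p under 0.05 or a call by DESeq2, limma-voom or limma-trend. MHC class II genes summed to 4714, 2753 and 14393 CPM in IDH2-FLT3 vehicle, against 10246, 14196, 9139 and 4319 CPM in TET2-FLT3 vehicle, so V9 and V5 were the highest libraries of their groups.

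**Figure D4:**
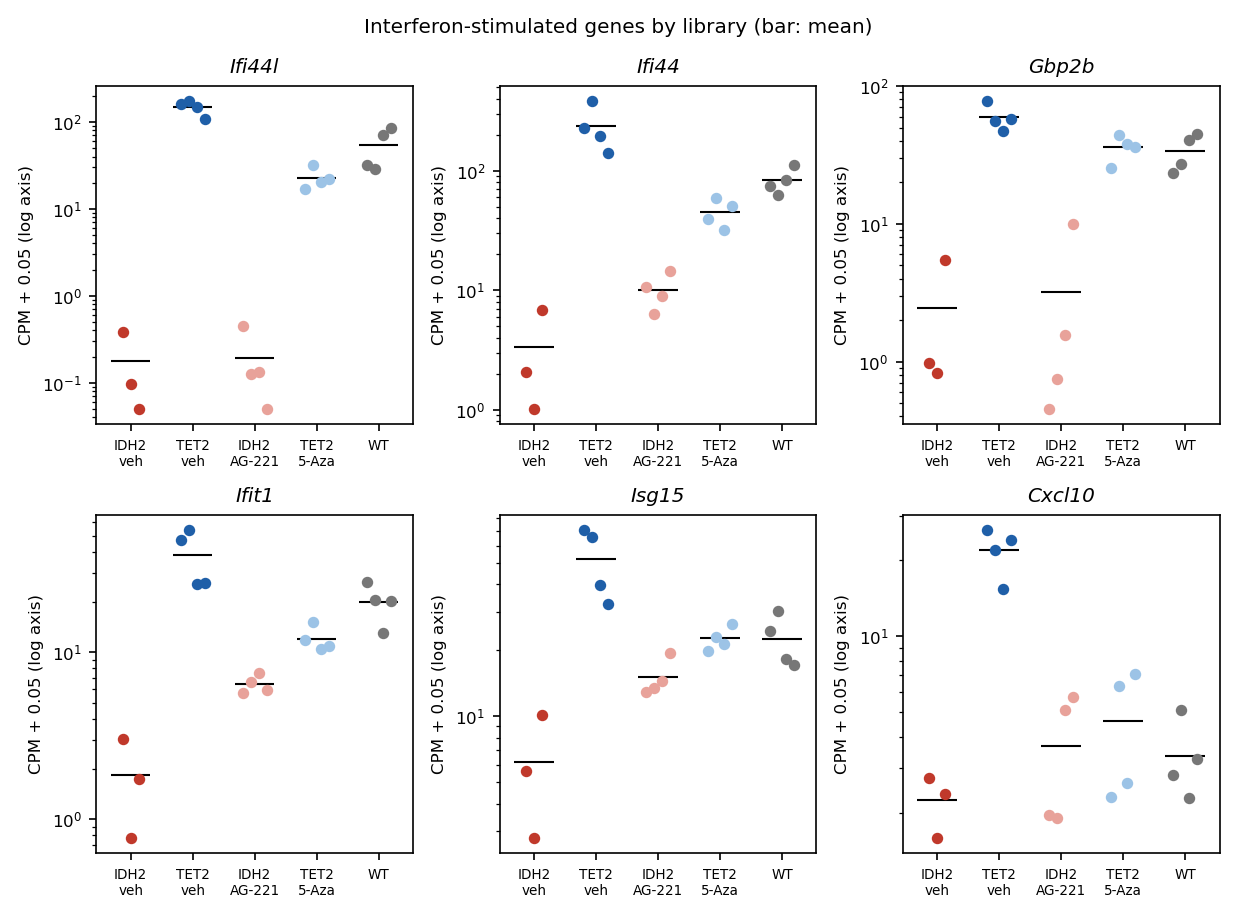
Levels of 6 interferon-induced genes by library in CPM plus 0.05 on a log axis, for IDH2-FLT3 vehicle, TET2-FLT3 vehicle, AG-221, 5-Aza and WT, where points are libraries and bars are means. All 3 IDH2-FLT3 vehicle libraries lie below all 4 TET2-FLT3 vehicle libraries in every panel, and Ifi44l is near 0 in both IDH2-FLT3 groups.

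Stem cell identity genes that passed the test were all lower in IDH2-FLT3 vehicle. EdgeR called 5 of 22 tested members lower and 0 higher (22.7%, where 4.28% of all accessions were called), with a median log2 fold change of -1.15, and 20 had a negative value. The count was 2 without V3, 3 without V3-2 and 10 without V9. Procr, the protein C receptor that marks long-term stem cells, gave 3.04, 3.89 and 13.6 CPM in IDH2-FLT3 vehicle, against 55.6, 32.8, 35.6 and 46.1 CPM in TET2-FLT3 vehicle (log2 fold change -2.64 ± 0.40, adjusted p = 0.00135). Hlf, a transcription factor of stem cells, gave 18.5, 14.9 and 63.2 CPM in IDH2-FLT3 vehicle, against 150.1, 162, 121 and 332 CPM in TET2-FLT3 vehicle (log2 fold change -2.57 ± 0.50, adjusted p = 0.00577, and 0.0579 without V3). V9 was the highest IDH2-FLT3 library and still lay below every TET2-FLT3 library for Procr and Hlf. Fgd5, a guanine nucleotide exchange factor used to mark stem cells, gave 0.590, 0.625 and 7.94 CPM in IDH2-FLT3 vehicle, against 14.5, 13.4, 21.1 and 30.6 CPM in TET2-FLT3 vehicle (log2 fold change -2.72 ± 0.71, adjusted p = 0.0337, and up to 0.187 without V3-2, V3 or V19). Tcf15, a transcription factor of quiescent stem cells, had 1 read in IDH2-FLT3 vehicle and 56 in TET2-FLT3 vehicle. Its level in TET2-FLT3 vehicle was higher by 44.4-fold (95% interval from counting error 7.65 to 1784), with an adjusted p of 0.00891, and up to 0.0723 without V3-2 or V3. Mecom, a factor of stem cell self-renewal with 2 accessions, gave 3.12, 1.87 and 31.0 CPM in IDH2-FLT3 vehicle, against 30.5, 27.7, 26.6 and 39.0 CPM in TET2-FLT3 vehicle, where V9 equalled the TET2-FLT3 libraries, and was not called (log2 fold change -1.37 ± 0.58, adjusted p = 0.185).

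For Hlf and Procr, all libraries of both leukemic lines lay below all WT libraries, and the AG-221 libraries lay above the IDH2-FLT3 vehicle ones. Of the 22 stem cell members, 2 were called higher in AG-221 than in 5-Aza and 0 lower. Hlf gave 442, 189, 388 and 199 CPM after AG-221, 593, 385, 422 and 305 CPM after 5-Aza and 742, 626, 1061 and 1019.8 CPM in WT. Procr gave 37.1, 43.0, 27.0 and 34.7 CPM after AG-221, 45.3, 39.0, 41.6 and 51.1 CPM after 5-Aza and 73.6, 56.4, 59.3 and 70.0 CPM in WT. EdgeR called none of 17 lymphoid-primed progenitor genes, the next multipotent stage (median -0.91). Of these, 7 had an unadjusted p under 0.05, and DESeq2, limma-voom and limma-trend called 3, 1 and 2 lower. EdgeR's count was 6 without V9, 1 without V5 and 4 without V5-2. Beside these values stand the primary granule genes, which summed to 126431, 73281 and 30416 CPM in IDH2-FLT3 vehicle, against 35455, 21243, 15175 and 18812 CPM in TET2-FLT3 vehicle. The part of granulocyte progenitors in the stem cell values was not tested.

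The Hox genes called lower all belong to the Hoxb cluster on chromosome 11. Of 17 tested Hox genes and cofactors, 5 were called lower and 0 higher (29.4%, where 4.28% of all accessions were called). Their median was -1.05, and the count called lower was 1 without V3, 2 without V3-2 and 0 by limma-voom. Hoxb5, a homeobox gene of long-term stem cells, gave 0.675, 0.337 and 0.641 CPM in IDH2-FLT3 vehicle, against 15.1, 4.79, 3.98 and 6.33 CPM in TET2-FLT3 vehicle (log2 fold change -3.77 ± 0.67, adjusted p = 0.00378). Hoxb6 gave 0, 0.144 and 0.401 CPM in IDH2-FLT3 vehicle, against 16.0, 1.35, 4.88 and 5.95 CPM in TET2-FLT3 vehicle (log2 fold change -5.20 ± 1.06, adjusted p = 0.00748, and 0.0585 without V3). Hoxb7 gave 0.0843, 0.337 and 0 CPM in IDH2-FLT3 vehicle, against 6.95, 1.49, 1.89 and 1.92 CPM in TET2-FLT3 vehicle (log2 fold change -4.17 ± 1.11, adjusted p = 0.0355, and up to 0.195 without V3-2, V3, V9, V19 or V1). V1 was the highest library for Hoxb5, Hoxb6 and Hoxb7. Hoxb9 had 0 reads in IDH2-FLT3 vehicle and 8.45, 2.70, 1.93 and 1.34 CPM in TET2-FLT3 vehicle, at least 43.1-fold lower against a floor of 3 counts over the group (adjusted p = 0.0152, and up to 0.0809 without V3-2 or V3). Hoxb8 had 1 read in IDH2-FLT3 vehicle and 190 in TET2-FLT3 vehicle. Its level in TET2-FLT3 vehicle was higher by 151-fold (95% interval from counting error 26.7 to 5979), with an adjusted p of 0.0175, and up to 0.0863 without V3-2 or V3. Hoxb4, in the same cluster, gave 7.67, 15.05 and 6.98 CPM in IDH2-FLT3 vehicle, against 16.4, 7.63, 10.7 and 21.0 CPM in TET2-FLT3 vehicle, with overlapping groups and no call (log2 fold change -0.48 ± 0.44, adjusted p = 0.533). WT libraries ranged from 7.32 to 13.4 CPM for Hoxb5 and from 0.0826 to 1.06 CPM for Hoxb9. The strand setting of the counting is not given in the sources used here, so reads of overlapping or antisense transcripts in the cluster cannot be told apart.

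Aldehyde dehydrogenases held a call in each direction. Aldh1a1, a retinaldehyde dehydrogenase, gave 0.506, 0.144 and 1.76 CPM in IDH2-FLT3 vehicle, against 41.3, 7.70, 14.1 and 47.6 CPM in TET2-FLT3 vehicle (log2 fold change -5.15 ± 0.80, adjusted p = 0.00152). All IDH2-FLT3 libraries lay below all TET2-FLT3 libraries for Aldh1a1. Aldh1a1 gave 7.45, 21.7, 23.8 and 8.99 CPM after AG-221, 70.0, 28.0, 41.1 and 20.3 CPM after 5-Aza and 69.0, 53.9, 60.3 and 44.8 CPM in WT. Of 13 aldehyde dehydrogenases, 1 was called lower, Aldh1a1, and 1 higher, Aldh3b1 (15.4%, where 4.28% of all accessions were called). Aldh3b1 gave 76.1, 53.8 and 21.2 CPM in IDH2-FLT3 vehicle, against 9.95, 14.4, 15.3 and 6.53 CPM in TET2-FLT3 vehicle (log2 fold change 2.12 ± 0.50, adjusted p = 0.0175, and up to 0.168 without V3-2, V3 or V19). Among 10 imprinted genes, Ppp1r9a and Phlda2 were called lower, and Phlda2, which restrains growth of the placenta, gave 0.253, 0.0481 and 0.160 CPM in IDH2-FLT3 vehicle, against 3.82, 1.76, 0.779 and 2.30 CPM in TET2-FLT3 vehicle (log2 fold change -3.81 ± 0.75, adjusted p = 0.00585).

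**Figure D5:**
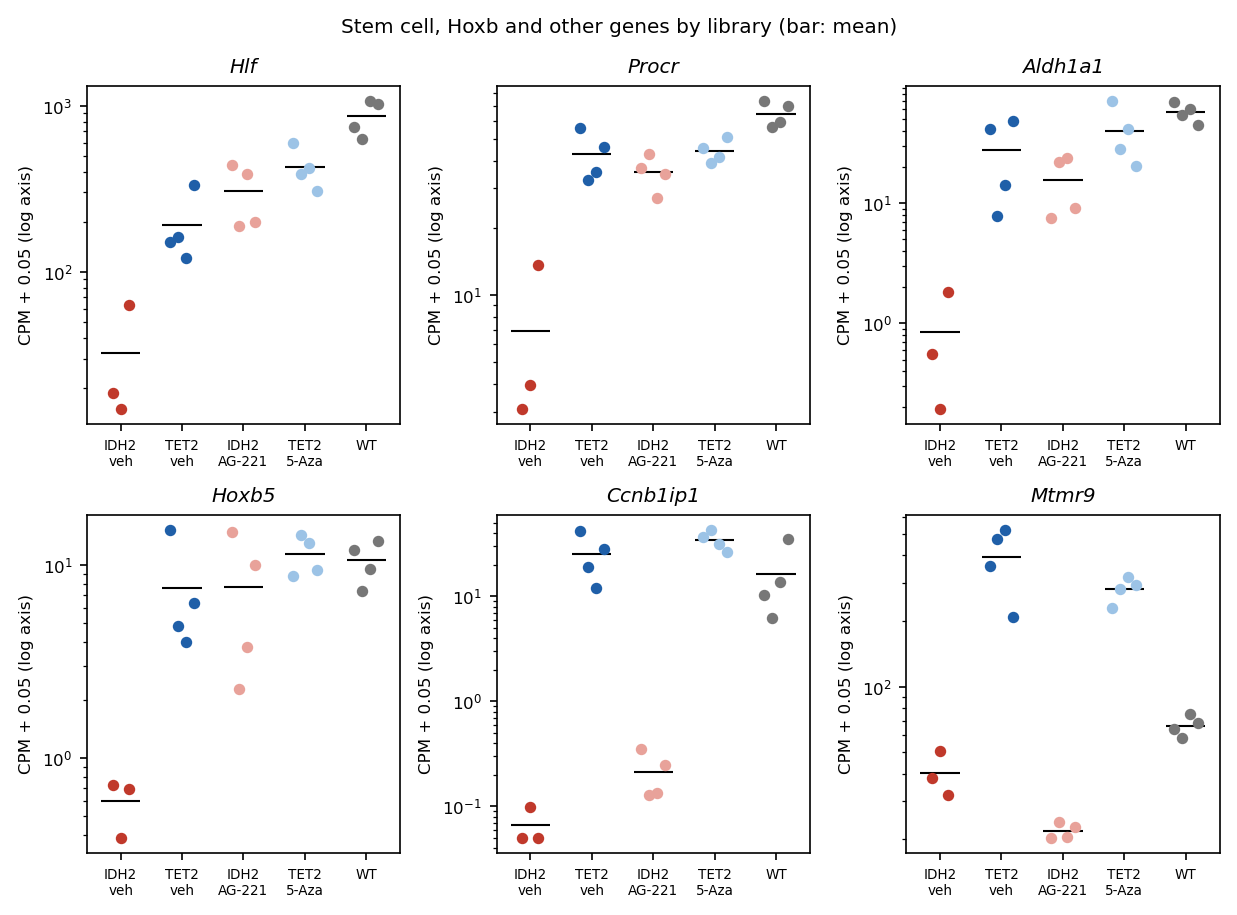
Levels of Hlf, Procr, Aldh1a1, Hoxb5, Ccnb1ip1 and Mtmr9 by library in CPM plus 0.05 on a log axis, for IDH2-FLT3 vehicle, TET2-FLT3 vehicle, AG-221, 5-Aza and WT, where points are libraries and bars are means. All 6 are lower in every IDH2-FLT3 vehicle library than in any TET2-FLT3 vehicle library; Ccnb1ip1 and Mtmr9 also separate AG-221 from 5-Aza, while the treated arms overlap for the other 4.

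Receptor genes for myeloid cytokines were higher where they were called, 5 of 29 tested (17.2%, where 4.28% of all accessions were called). Their median was 0.52, and the count called higher was 0 without V3, 1 without V3-2, 11 without V9, 9 without V5-2 and 2 without V19. None was called lower by edgeR, 2 had an unadjusted p under 0.05 in that direction, and DESeq2, limma-voom and limma-trend called 2, 0 and 1. Beside Csf1r and Ifngr1 stood Cxcr2, the neutrophil receptor for CXC chemokines, with 43.4, 30.1 and 14.6 CPM in IDH2-FLT3 vehicle, against 3.14, 6.48, 6.56 and 9.31 CPM in TET2-FLT3 vehicle (log2 fold change 2.20 ± 0.51, adjusted p = 0.0163, and up to 0.143 without V3-2 or V3). Ccr1, a CC chemokine receptor (log2 fold change 2.18 ± 0.62, adjusted p = 0.0481, and up to 0.311 without V3-2, V3, V19 or V5-2), and Tnfrsf1b, a receptor of tumor necrosis factor (log2 fold change 1.53 ± 0.38, adjusted p = 0.0255, and up to 0.170 without V3-2, V3, V19 or V1), were the other calls. Vcam1, a ligand of integrins on blood cells, gave 192, 121 and 5.85 CPM in IDH2-FLT3 vehicle, against 5.18, 4.66, 2.748 and 7.198 CPM in TET2-FLT3 vehicle (log2 fold change 4.44 ± 0.72, adjusted p = 0.00219). Itga1, a collagen-binding integrin chain, gave 56.0, 85.4 and 7.70 CPM in IDH2-FLT3 vehicle, against 3.95, 3.58, 5.95 and 2.59 CPM in TET2-FLT3 vehicle (log2 fold change 3.62 ± 0.68, adjusted p = 0.00476). V9 lay among the TET2-FLT3 libraries for Vcam1 and above them for Itga1. With Itgb2l they were the 3 calls among 28 integrin and adhesion genes (10.7%, where 4.28% of all accessions were called). The count called higher among these genes was 6 without V9 and 6 without V5-2. None of these was called lower by edgeR, 3 had an unadjusted p under 0.05 in that direction, and DESeq2, limma-voom and limma-trend called 1 each.

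Chemokine and cytokine genes were lower where called, 3 of 22 tested (13.6%, where 4.28% of all accessions were called). Their median was -1.15, and the count called lower was 1 without V3, 6 without V9 and 6 without V5-2. Beside Cxcl10 the calls were Ccl4, an inflammatory chemokine of macrophages, and Ltb, lymphotoxin beta. Ccl4 gave 1.77, 1.06 and 9.94 CPM in IDH2-FLT3 vehicle, against 66.0, 27.9, 9.11 and 67.7 CPM in TET2-FLT3 vehicle (log2 fold change -3.33 ± 0.77, adjusted p = 0.0158, and up to 0.126 without V3-2 or V3). Ltb gave 0.169, 4.52 and 2.16 CPM in IDH2-FLT3 vehicle, against 41.0, 3.44, 49.999 and 21.6 CPM in TET2-FLT3 vehicle (log2 fold change -3.63 ± 0.82, adjusted p = 0.0141, and 0.0695 without V3). Single libraries overlapped for both: V9 lay above V5-2 for Ccl4 and V3-2 above V5 for Ltb.

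Lists of feedback and survival genes of signaling from FLT3 held lower calls and 1 higher call, Lrg1. Of 18 STAT5 feedback and survival genes, 2 were lower and 1 higher (16.7%, where 4.28% of all accessions were called). The count called lower was 0 without V3, 0 without V3-2, 1 without V1 and 0 without V19, and the count called higher 0 without V3-2. Socs3, an inhibitor of JAK signaling, gave 0.422, 1.68 and 5.21 CPM in IDH2-FLT3 vehicle, against 5.86, 8.03, 18.1 and 29.9 CPM in TET2-FLT3 vehicle (log2 fold change -2.67 ± 0.65, adjusted p = 0.0225, and up to 0.126 without V3-2, V3 or V19). Pim2, a survival kinase, gave 5.65, 12.1 and 68.2 CPM in IDH2-FLT3 vehicle, against 124, 102, 150.2 and 151 CPM in TET2-FLT3 vehicle (log2 fold change -2.21 ± 0.59, adjusted p = 0.0369, and up to 0.178 without V3-2, V3, V19 or V1). V9 was the highest IDH2-FLT3 library for Socs3 and Pim2, and V3 the lowest. Lrg1, a secreted glycoprotein of neutrophil granules, was the higher one, with 13.7, 53.2 and 1.60 CPM in IDH2-FLT3 vehicle, against 0.682, 0.338, 1.48 and 2.78 CPM in TET2-FLT3 vehicle, where V9 lay below V19 (log2 fold change 4.10 ± 0.91, adjusted p = 0.0131, and 0.120 without V3-2). Of 18 MAPK feedback genes, 2 were lower (11.1%), a count of 0 without V3, 1 without V1 and 1 without V19. These were the phosphatase gene Dusp2 (log2 fold change -1.62 ± 0.45, adjusted p = 0.0457, and up to 0.255 without V3, V19 or V1) and the MAP kinase gene Mapk11 (log2 fold change -2.36 ± 0.48, adjusted p = 0.00779, and 0.0701 without V3).

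Markers of other lineages held at most 1 call in each direction. Mgl2, a C-type lectin of dendritic cells and macrophages, gave 82.2, 48.5 and 9.62 CPM in IDH2-FLT3 vehicle, against 1.77, 1.76, 1.52 and 1.92 CPM in TET2-FLT3 vehicle (log2 fold change 4.75 ± 0.85, adjusted p = 0.00378) and was the 1 call among 15 conventional dendritic cell genes. Blnk, an adaptor of B cell receptor signaling, gave 1.35, 0.481 and 0.962 CPM in IDH2-FLT3 vehicle, against 6.82, 7.29, 4.96 and 2.11 CPM in TET2-FLT3 vehicle (log2 fold change -2.53 ± 0.60, adjusted p = 0.0196, and up to 0.0918 without V3-2 or V3) and was the 1 call among 22 early B cell genes and among 15 plasmacytoid genes. Hemgn, a nuclear protein of blood progenitors, gave 2.70, 2.02 and 13.7 CPM in IDH2-FLT3 vehicle, against 75.7, 24.2, 18.8 and 48.7 CPM in TET2-FLT3 vehicle (log2 fold change -2.77 ± 0.56, adjusted p = 0.00712, and 0.0661 without V3) and was the 1 call among 25 erythroid genes. Thy1, a surface protein of T cells and some stem cells, gave 5.48, 22.8 and 53.3 CPM in IDH2-FLT3 vehicle, against 192, 45.9, 175 and 176 CPM in TET2-FLT3 vehicle (log2 fold change -2.44 ± 0.64, adjusted p = 0.0325, and up to 0.170 without V3-2, V3, V19 or V1) and was the 1 call among 21 T and NK cell genes. V9 exceeded V5 for Thy1. Of 20 megakaryocyte and platelet genes, Thbs1, thrombospondin, was higher (log2 fold change 3.38 ± 0.83, adjusted p = 0.0229, and up to 0.0944 without V3-2, V3 or V1) and Gp5, a platelet glycoprotein, lower (log2 fold change -2.96 ± 0.84, adjusted p = 0.0474, and up to 0.233 without V3-2, V3, V19 or V1). Of 39 hematopoietic transcription factors, Cebpe was the 1 higher and Hlf and Tcf15 the 2 lower (7.69% called). These counts moved with single libraries. Members called lower numbered 0 without V3, 8 without V9, 0 without V1, 6 without V5-2 and 0 without V19 for T and NK cells, 0 without V3, 0 without V3-2, 6 without V9 and 3 without V5-2 for early B cells and 0 without V3, 0 without V3-2, 3 without V9 and 3 without V5-2 for plasmacytoid cells. For erythroid genes they numbered 0 without V3 and 2 without V9, for megakaryocyte and platelet genes 0 without V3, 0 without V3-2, 5 without V9, 0 without V1 and 0 without V19, and for transcription factors 0 without V3, 1 without V3-2, 6 without V9, 4 without V5 and 9 without V5-2. Members called higher numbered 0 without V3, 0 without V3-2, 2 without V9, 0 without V1 and 2 without V5-2 for megakaryocytes and platelets and 0 without V3, 0 without V3-2, 3 without V9 and 2 without V5-2 for transcription factors.

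Iron and lysosome genes had 2 higher calls among 26, Slc40a1 and Hexa (7.69%, where 4.28% of all accessions were called). The count was 0 without V3, 1 without V3-2, 4 without V9, 1 without V1, 4 without V5-2 and 1 without V19. Slc40a1, the iron exporter ferroportin, gave 129, 61.01 and 8.50 CPM in IDH2-FLT3 vehicle, against 12.0, 4.46, 2.26 and 3.84 CPM in TET2-FLT3 vehicle (log2 fold change 3.58 ± 0.70, adjusted p = 0.00585, and 0.0695 without V3). Hexa, a lysosomal hexosaminidase, had a smaller difference (log2 fold change 1.24 ± 0.30, adjusted p = 0.0217, and up to 0.184 without V3-2, V3, V19 or V1). Growth and stress programs held no edgeR call. This held for S phase genes (30 tested, median 0.19), mitosis genes (34 tested, median 0.40) and p53 targets (18 tested, median -0.05). It also held for unfolded protein response genes (26 tested, median 0.49), glycolysis and hypoxia genes (24 tested, median 0.22), amino acid starvation and serine pathway genes (23 tested, median 0.41) and immediate-early genes (19 tested, median -0.11). The remaining lists without a call were respiratory chain genes (37 tested, median -0.32), cytosolic ribosomal protein genes (50 tested, median -0.57), endothelial and stromal genes (8 tested, median -0.45) and germline genes (2 tested, median -0.95).

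By an unadjusted p under 0.05, these lists held 3 S phase, 5 mitosis, 1 p53, 7 unfolded protein response, 8 glycolysis, 2 amino acid, 3 immediate-early, 9 respiratory chain, 13 ribosomal, 1 endothelial and 0 germline genes, beside 21.0% of all accessions. DESeq2 called 8 ribosomal, 4 unfolded protein response, 3 glycolysis, 2 mitosis and 2 immediate-early genes and 1 each of the p53 and respiratory chain lists. Limma-voom called 1 glycolysis gene, and limma-trend called 0. EdgeR's count of ribosomal protein genes called lower was 3 without V9, 7 without V5 and 12 without V5-2. That of respiratory chain genes called lower was 1 without V5 and 9 without V5-2. Unfolded protein response genes called higher numbered 4 without V9, 2 without V5 and 4 without V5-2, and glycolysis genes called higher 3 without V9 and 4 without V5-2. The 5 sex-linked genes checked, Xist and 4 of the Y chromosome, held 0 calls by edgeR, DESeq2 or limma-voom and 0 with an unadjusted p under 0.05. Ribosomal protein genes summed to 32959.8, 26597 and 36635 CPM in IDH2-FLT3 vehicle, against 68306, 38053, 29905 and 42819.6 CPM in TET2-FLT3 vehicle, with V1 highest. In data simulated at these library sizes, 8.96% of 2-fold, 56.7% of 4-fold and 86.4% of 8-fold changes were called. The simulation gave a gene the same spread in every group, so recovery in the real vehicle groups may differ. A list without a call is thus not shown to be equal between the lines.

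The largest differences outside the lists were found on both sides. Mgam, a maltase-glucoamylase, gave 39.9, 47.6 and 5.53 CPM in IDH2-FLT3 vehicle, against 0.136, 0.540, 0.451 and 1.25 CPM in TET2-FLT3 vehicle (log2 fold change 5.68 ± 0.85, adjusted p = 0.00109). Abca13, a transporter of the ABC family, gave 41.9, 62.4 and 2.33 CPM in IDH2-FLT3 vehicle, against 0.682, 1.22, 0.738 and 1.54 CPM in TET2-FLT3 vehicle (log2 fold change 5.08 ± 0.96, adjusted p = 0.00474). Sgms2, a sphingomyelin synthase, gave 219, 128 and 21.2 CPM in IDH2-FLT3 vehicle, against 2.59, 3.85, 3.45 and 7.49 CPM in TET2-FLT3 vehicle (log2 fold change 4.82 ± 0.77, adjusted p = 0.00190). For Mgam, Abca13 and Sgms2, V9 was the lowest IDH2-FLT3 library and lay above every TET2-FLT3 library. Gpx3, the secreted glutathione peroxidase, gave 115, 36.0 and 9.46 CPM in IDH2-FLT3 vehicle, against 1.77, 3.38, 1.60 and 2.11 CPM in TET2-FLT3 vehicle (log2 fold change 4.58 ± 0.78, adjusted p = 0.00302). Myo18b, an unconventional myosin (log2 fold change 5.44 ± 0.99, adjusted p = 0.00387), Crispld2 (log2 fold change 4.78 ± 0.86, adjusted p = 0.00387), Mtus1 (log2 fold change 4.59 ± 0.84, adjusted p = 0.00387) and Olfml2b (log2 fold change 4.45 ± 1.16, adjusted p = 0.0325, and up to 0.134 without V3-2, V3, V19 or V1) completed the set of higher genes. Mtus1 has several accessions, so its reads may be incomplete.

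On the lower side stood genes at or near 0 in IDH2-FLT3 vehicle. Ccnb1ip1, a ubiquitin ligase of meiotic recombination, gave 0, 0.0481 and 0 CPM in IDH2-FLT3 vehicle, against 41.5, 19.2, 11.9 and 28.4 CPM in TET2-FLT3 vehicle. Its 1 read in IDH2-FLT3 vehicle and 1173 reads in TET2-FLT3 vehicle made a level higher in TET2-FLT3 vehicle by 929.7-fold (95% interval from counting error 167 to 36751), with an adjusted p of 3.27e-06. The difference remained with drug, with 0.302, 0.0770, 0.0842 and 0.195 CPM after AG-221, against 36.3, 42.4, 31.3 and 26.2 CPM after 5-Aza (adjusted p = 1.10e-06), and WT gave 10.2, 6.19, 13.5 and 35.2 CPM. Xlr4a, an X-linked gene with close copies, gave 0.590, 0.433 and 1.28 CPM in IDH2-FLT3 vehicle, against 19.09, 22.9, 9.76 and 15.9 CPM in TET2-FLT3 vehicle (log2 fold change -4.47 ± 0.44, adjusted p = 4.54e-06). Nkx2-3, a homeobox gene, gave 0.0843, 0 and 2.00 CPM in IDH2-FLT3 vehicle, against 22.8, 6.75, 13.7 and 22.9 CPM in TET2-FLT3 vehicle (log2 fold change -4.63 ± 0.91, adjusted p = 0.00585). Npdc1, a membrane protein known from neural cells, gave 0.422, 0.529 and 2.16 CPM in IDH2-FLT3 vehicle, against 16.4, 7.90, 21.9 and 30.5 CPM in TET2-FLT3 vehicle (log2 fold change -4.22 ± 0.77, adjusted p = 0.00387). V9 was the highest IDH2-FLT3 vehicle library for Xlr4a, Nkx2-3 and Npdc1 and lay below every TET2-FLT3 vehicle library. After AG-221, Xlr4a gave 7.05, 8.47, 5.89 and 6.45 CPM and Nkx2-3 gave 20.9, 2.85, 9.51 and 11.8 CPM. In the same AG-221 libraries, Npdc1 gave 16.8, 3.62, 5.73 and 1.17 CPM. Bgn, the proteoglycan biglycan, gave 1.26, 0.337 and 1.52 CPM in IDH2-FLT3 vehicle, against 6.55, 19.6, 13.4 and 24.1 CPM in TET2-FLT3 vehicle (log2 fold change -3.97 ± 0.51, adjusted p = 2.03e-04). Zfp532, a zinc finger gene (log2 fold change -3.54 ± 0.40, adjusted p = 3.10e-05), and Enho, which encodes the peptide adropin (log2 fold change -3.83 ± 0.88, adjusted p = 0.0156, and up to 0.0738 without V3-2 or V3), completed the set.

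Mtmr9, a phosphatase-like protein of the myotubularin family, lies outside the rule for named genes and was chosen after its values were seen. It gave 37.9, 50.7 and 32.0 CPM in IDH2-FLT3 vehicle, against 358, 477, 521 and 209.5 CPM in TET2-FLT3 vehicle (log2 fold change -3.28 ± 0.30, adjusted p = 2.43e-06, and 2.41e-07 to 8.49e-05 with 1 library left out). It gave 20.2, 23.9, 20.5 and 22.8 CPM after AG-221, against 229, 281, 317 and 293 CPM after 5-Aza (log2 fold change -3.68 ± 0.27, adjusted p = 1.06e-07), and 64.3, 57.9, 74.6 and 68.4 CPM in WT. Both IDH2-FLT3 groups lay below WT and both TET2-FLT3 groups above it for Mtmr9. Adgrl4, an adhesion receptor gene near Ifi44l, was also chosen after its values were seen. It gave 179, 114 and 109.5 CPM in IDH2-FLT3 vehicle, against 370.1, 435, 359 and 325 CPM in TET2-FLT3 vehicle (log2 fold change -1.47 ± 0.27, adjusted p = 0.00387), and 874, 826, 1110.0 and 977 CPM in WT. Both vehicle groups lay below WT for Adgrl4.

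Genes near the engineered loci were counted apart. Among the 50 annotated genes on each side of Tet2 on chromosome 3, 3 of 21 tested genes were called (14.3%, against 4.28% of all accessions), 7 had an unadjusted p under 0.05, and DESeq2, limma-voom and limma-trend called 5, 0 and 2. The edgeR calls were Sgms2, Manba, a lysosomal mannosidase (log2 fold change 1.09 ± 0.25, adjusted p = 0.0147, and up to 0.114 without V3-2, V3 or V19), and Mcub, a subunit of the mitochondrial calcium channel with several accessions (log2 fold change 3.80 ± 1.01, adjusted p = 0.0354, and up to 0.173 without V3-2, V3, V19, V1 or V5). Around Idh2 on chromosome 7, 3 of 39 were called (7.69%), 7 had an unadjusted p under 0.05, and DESeq2, limma-voom and limma-trend called 3, 1 and 1. Fes, a tyrosine kinase of myeloid cells, gave 405, 627 and 165 CPM in IDH2-FLT3 vehicle, against 73.2, 138, 272 and 120.2 CPM in TET2-FLT3 vehicle (log2 fold change 1.403 ± 0.38, adjusted p = 0.0390, and up to 0.223 without V3-2, V3, V19, V1 or V5). Alpk3, an alpha-kinase, was lower (log2 fold change -2.67 ± 0.68, adjusted p = 0.0288, and up to 0.192 without V3-2, V3 or V19). Acan, the proteoglycan aggrecan, had 1 read in IDH2-FLT3 vehicle and 85 in TET2-FLT3 vehicle (adjusted p = 0.0231, and up to 0.1503 without V3-2, V3 or V19). Around Flt3 on chromosome 5, edgeR called none of 25, 1 had an unadjusted p under 0.05, and DESeq2, limma-voom and limma-trend called 1, 0 and 0. Further along chromosome 3, Gbp2b and Gbp2 lie 112 and 113 genes from Tet2, and Adgrl4, Ifi44 and Ifi44l 242, 244 and 245. Adgrl2, 223 genes from Tet2 on the same side, had the opposite sign and was not called. The share called was 4.02% on chromosome 3 and 2.61% on chromosome 7, the lowest of the autosomes, and reached 6.31% on chromosome 14.

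Over all called accessions, the direction in the treated arms can be read beside that in the vehicle arms. Of the 228 called higher in IDH2-FLT3 vehicle, 87.3% were higher in AG-221 than in 5-Aza, and of the 278 called lower, 65.5% were lower, against 52.6% with the same sign among all accessions tested. Between the treated arms, where 0.744% of accessions were called, 11 of the 228 and 11 of the 278 were called in the same direction. Ear1 (log2 fold change 5.91 ± 0.94, adjusted p = 0.00390), Ear6 (4.06 ± 0.78, adjusted p = 0.0166), Crispld2 (3.63 ± 0.78, adjusted p = 0.0311) and Aldh3b1 (2.59 ± 0.50, adjusted p = 0.0166) were among the higher ones. Xlr4a (log2 fold change -2.42 ± 0.34, adjusted p = 0.00121) and Adgrl4 (-1.85 ± 0.24, adjusted p = 6.98e-04) were among the lower ones, with Ccnb1ip1, Mtmr9, Ifi44l, Ifi44 and Gbp2b.

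WT cells lay closer to TET2-FLT3 vehicle than to IDH2-FLT3 vehicle for most called accessions. The WT mean was nearer to the TET2-FLT3 mean for 190 of the 228 called higher and 222 of the 278 called lower, and for 7100 of all 11830. Of the 278 called lower, WT lay above both vehicle groups for 130, as for Hlf, between them for 134, as for Ifi44l, and below both for 14. Of the 228 called higher, WT lay below both for 63, between them for 157 and above both for 8. Since the groups were called on these vehicle libraries, their distance to WT is a description.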

How the data were processed

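Per the labels' protocols, polyA RNA of sorted cells was sequenced from SMARTer Ultra Low Input libraries. Per the submitters' processing notes, STAR 2.4.0f1, featureCounts, Subread 1.4.5-p1 and mm9 were used. The deposited main table holds raw read counts per transcript accession. The deposited FPKM table was the authors' own scaling of those counts by length and library total: the length implied by count and FPKM was equal in every library for 6600 well-covered accessions.

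Names came from RefSeq (33485 of 33862 accessions) and GENCODE (188), and the 189 left unnamed had 3.47% of the reads. With R 4.3.3 and edgeR 4.0.16, filterByExpr left 11830 accessions. Factors by TMM were 0.761 to 1.22. The quasi-likelihood fit used 5 group means over all 19 libraries (14 residual degrees of freedom, common dispersion 0.184, a coefficient of variation of 42.9%), and p-values were adjusted by Benjamini-Hochberg over everything tested. Log2 CPM for correlations used a prior count of 2. No per-sample column was left unused.

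Alternatives were DESeq2 1.42.0, limma 3.58.1 (voom, and trend on log2 FPKM plus 1 or 0.1), RLE factors, other filters, a fold minimum of 1.5, the 7 vehicle libraries alone, and libraries left out or summed. A term for the suffix -2, and leaving out V1, V3-2 and V5-2 together, were added after the data were seen. On simulated data with known changes, and with the same spread in every group, the test made 4 false calls among 11630 unchanged accessions. Floors and intervals cover counting error only.

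The comparison and its 40 gene lists were chosen with earlier results of these data known. Genes were named by rule: the engineered genes and related enzymes, the 15 largest differences each way among called genes that average at least 5 CPM and whose groups do not overlap, up to 4 called genes per list by smallest p, called neighbors of the loci, and other members where their list is described. Some genes that the rule names are not reported here.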

Additional observations from a re-analysis of the deposited data

Results flagged for a closer look

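Single libraries stood apart from the other 3 of their group for 15 of the genes described, by the size of the gap to the nearest library against the range of the group. The rule was applied to 112 genes in TET2-FLT3 vehicle and WT only, so no IDH2-FLT3 or treated library could be flagged. For normally distributed values, chance alone flags about 1 in 20 groups of 4, so many of these flags could be due to chance. V1 was the library most often concerned in TET2-FLT3 vehicle. It was the highest for Epx (6.00 CPM), Prg3 (7.09 CPM), Cpa3 (98.9 CPM), Cebpe (33.0 CPM), Itgb2l (9.95 CPM), Fcgr3 (44.3 CPM) and Hoxb7 (6.95 CPM), and the lowest for Ddx58 (39.5 CPM). V5-2 was the highest for Idh1 (1.93 CPM) and held the only TET2-FLT3 vehicle read of Ear1 (0.0410 CPM). V5 was the lowest for Thy1 (45.9 CPM) and V19 the highest for Alpk3 (88.3 CPM). In WT, single libraries stood apart for Ear1 (1.59 CPM), Acan (0.302 CPM), Thy1 (15.3 CPM) and Pim2 (34.6 CPM), each the highest, and for Ifit3 (1.16 CPM), the lowest. Without V1, 367 accessions were called, 164 higher and 203 lower.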

How the results depend on the processing

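Against 506 calls (228 higher, 278 lower), DESeq2 made 1150 (444 and 706), limma-voom 192 (31 and 161) and the 7 vehicle libraries alone 17 (6 and 11). A fold minimum of 1.5 left 247 (120 and 127), summing V3 with V3-2 and V5 with V5-2 left 149 (55 and 94), and leaving out V3-2 and V5-2 left 190 (81 and 109). Of the settings chosen after seeing the data, a term for the suffix -2 gave 782 (340 and 442), and leaving out V1, V3-2 and V5-2 gave 45 (10 and 35). With 1 library left out, the calls ranged from 122 without V3 to 1640 without V5-2, from 69 to 768 higher and from 53 to 872 lower. Idh2, not called under any setting, ranged from -0.90 without V3-2 to 0.17 without V3 on the log2 scale, and was 0.00924 without V9 and 0.13 without V5-2. With V1, V3-2 and V5-2 left out, Tet3 was -0.00508. The cause of these changes was not tested. Of 112 genes given with values, the call was the same for 108 with DESeq2, 51 with limma-voom and 26 with the 7 libraries alone. With V3 and V3-2 summed and V5 and V5-2 summed, it was the same for 67, and 45 lost their call.

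No paired analysis was possible because the columns do not carry the titles' replicate numbers; what the columns of both lines share is the suffix -2, whose term in the model gave the 782 calls above. The spread between libraries, with V9 near V5 and V1 the shallowest, limits what can be called: fold changes under 4-fold were often missed in simulated data.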
